A study of Mus musculus with 11 samples.

Results

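The genes described here are the tubulins and 2 families of enzymes that edit tubulin tails, the tubulin tyrosine ligase-like (TTLL) ligases and the AGBL carboxypeptidases. They were taken from the deposited gene counts by symbol, as every gene whose symbol begins with Tuba, Tubb, Tubg, Tubd, Tube, Ttll or Agbl followed by a digit. This gave 37 of 21684 genes, made up of 7 alpha-tubulins, 8 beta-tubulins, 2 gamma-tubulins, 1 delta-tubulin, 1 epsilon-tubulin, 13 TTLL genes and 5 AGBL genes. RNA came from NIH/3T3 cells, an established mouse embryonic fibroblast line, and every group had been kept without serum for 24 h, the step that lets these cells grow a primary cilium. The 11 libraries were WT (2 libraries) and the knockout lines Xap5 KO, Nono KO and Sox5 KO (3 libraries each). The labels name neither the knockout method nor separate clones, so each knockout was treated as 1 line grown in replicate, and p-values measure the spread between those libraries, which may be technical.

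Total counts per library ran from 30205878 to 43498383. The targeted genes were looked at first. Fam50a, which is the mouse symbol of Xap5, stood at 7.49, 7.91 and 7.86 CPM (counts scaled to library size) in Xap5 KO against 64.8 and 62.9 in WT. Nono stood at 33.95, 33.99 and 27.6 CPM in Nono KO against 357.4 and 350.8 in WT. Sox5 stood at 12.6, 13.9 and 13.9 CPM in Sox5 KO against 49.7 and 45.9 in WT, but it was also low in Xap5 KO (14.2, 15.02 and 11.9 CPM) and in Nono KO (7.01, 7.57 and 8.75 CPM), so its RNA does not single out the Sox5 KO line. The 8 fibroblast markers examined had summed levels of 9863.2 to 10045.7 CPM in WT and 9770.6 to 10312.8 in Xap5 KO, and higher ones of 26368.7 to 31871.5 in Nono KO and 13401.9 to 13876.7 in Sox5 KO. Members of that list went both ways in Xap5 KO and Sox5 KO. At an adjusted p under 0.05, 3 higher and 2 lower were called in the Xap5 line and 5 higher and 0 lower in the Nono line. In the Sox5 line 6 higher and 1 lower were called, the latter being Pdgfra with a log2 fold change of -1.03. Of all tested genes, 45.5%, 48.6% and 60.9% were called in the Xap5, Nono and Sox5 lines. Markers of epithelium, endothelium and multiciliated cells summed to at most 1.52 CPM per list in any library, and the 3 leukocyte markers ranged from 1.88 to 10.9. Most of the high end was Ptprc in Nono KO, at 5.996, 7.31 and 6.68 CPM against 0.124 and 0.0908 in WT and 0 in all Sox5 KO libraries.

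Microtubules are polymers of alpha- and beta-tubulin dimers, and a ring of gamma-tubulin starts new ones. Delta- and epsilon-tubulin are centriole proteins needed for the triplet microtubules at the base of a cilium. Different genes encode nearly the same tubulin core and differ mainly in a short acidic tail. Glutamate and glycine side chains are added to those tails by TTLL enzymes, and glutamates are removed by the AGBL enzymes, also called cytosolic carboxypeptidases. Most alpha-tubulins end in a tyrosine that vasohibins remove and tubulin tyrosine ligase (Ttl) restores. The axoneme of a primary cilium is rich in glutamylated and detyrosinated tubulin.

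The ends of 6 coding sequences are shown because these codons set which genes encode a tail tyrosine and glutamates that can carry side chains. They were read from GENCODE M21 transcripts of GRCm38, and each coordinate is that of the 30 bases printed, in the last coding exon. Each sequence runs 5′ to 3′ and ends with the stop codon, and the capitals mark the last sense codon.
Tuba1c (chr15:99037980-99038009, plus strand): gaaggagacgatgagggtgaggaaTATtaa
Tuba4a (chr1:75215622-75215651, minus strand): tatgaggacgaggatgagggagaaGAGtag
Tubb5 (chr17:35834982-35835011, minus strand): ttcggagaggaggcagaagaggagGCCtaa
Tubb4b (chr2:25222308-25222337, minus strand): gaggaggaggctgaggaggaggtgGCTtag
Tubb2a (chr13:34074468-34074497, minus strand): gaggaggaggagggtgaagatgagGCTtga
Tubb2b (chr13:34127471-34127500, minus strand): gaggaggaagagggcgaggatgagGCTtga
The last sense codon is TAT, a tyrosine codon, in Tuba1c, whereas in Tuba4a it is GAG, a glutamate codon, so Tuba4a encodes no tail tyrosine. Of the last 15 codons, 7 encode glutamate or aspartate in Tuba1c, 9 in Tuba4a and 10 each in Tubb5, Tubb4b, Tubb2a and Tubb2b.

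The beginnings of the coding sequences are shown because tubulin messages are degraded when free dimers are in excess, and the first codons of the nascent chain carry the signal for this. The capitals mark the first 4 codons.
Tuba1a: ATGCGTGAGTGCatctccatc
Tuba1b: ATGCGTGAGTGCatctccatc
Tuba4a: ATGCGCGAGTGCatttcagtc
Tubb5: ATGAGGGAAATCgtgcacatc
Tubb2b: ATGCGAGAGATCgtgcacatt
Tubg1: ATGCCGAGAGAAatcatcacc
The first 21 bases of Tuba1a and Tuba1b are identical. Coding identity was 98.3% between Tuba1a and Tuba1b, with a longest identical run of 281 bases, and 96.5% between Tubb2a and Tubb2b, with a longest identical run of 551 bases. Tubb5 was 82.2% identical to Tubb4b and 79.9% identical to Tubb6. Counts of single Tuba1 and Tubb2 genes are therefore uncertain, and their sums are given beside them.

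Levels differed widely between members. They are compared between genes as CPM per kilobase of the longest annotated transcript. In WT, Tubb5 had the highest mean at 403.5 ± 3.38 CPM per kilobase (SD, n = 2), followed by Tuba1a at 311.3 ± 6.61 and Tuba1b at 270.5 ± 12.7. Tuba1c stood at 103.7 ± 7.098, Tubb4b at 87.2 ± 3.85, Tubb2a at 43.7 ± 2.91, Tubb6 at 41.4 ± 2.44 and Tubb2b at 16.5 ± 1.92 CPM per kilobase. The WT libraries of Tubb2a and Tubb6 overlapped, so this pair has no order, and those of the others named did not. Among the enzymes Ttll12 was highest, at 14.99 CPM per kilobase in WT, where its libraries overlapped those of Tubb2b. Ttll1 stood at 8.12, Ttll4 at 7.18, Agbl5 at 5.91, Ttll7 at 5.32, Ttll5 at 5.12 and Ttll3 at 4.71. The WT libraries of Agbl5, Ttll7 and Ttll5 overlapped, and so did those of Ttll5 and Ttll3.

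**Figure D1:**
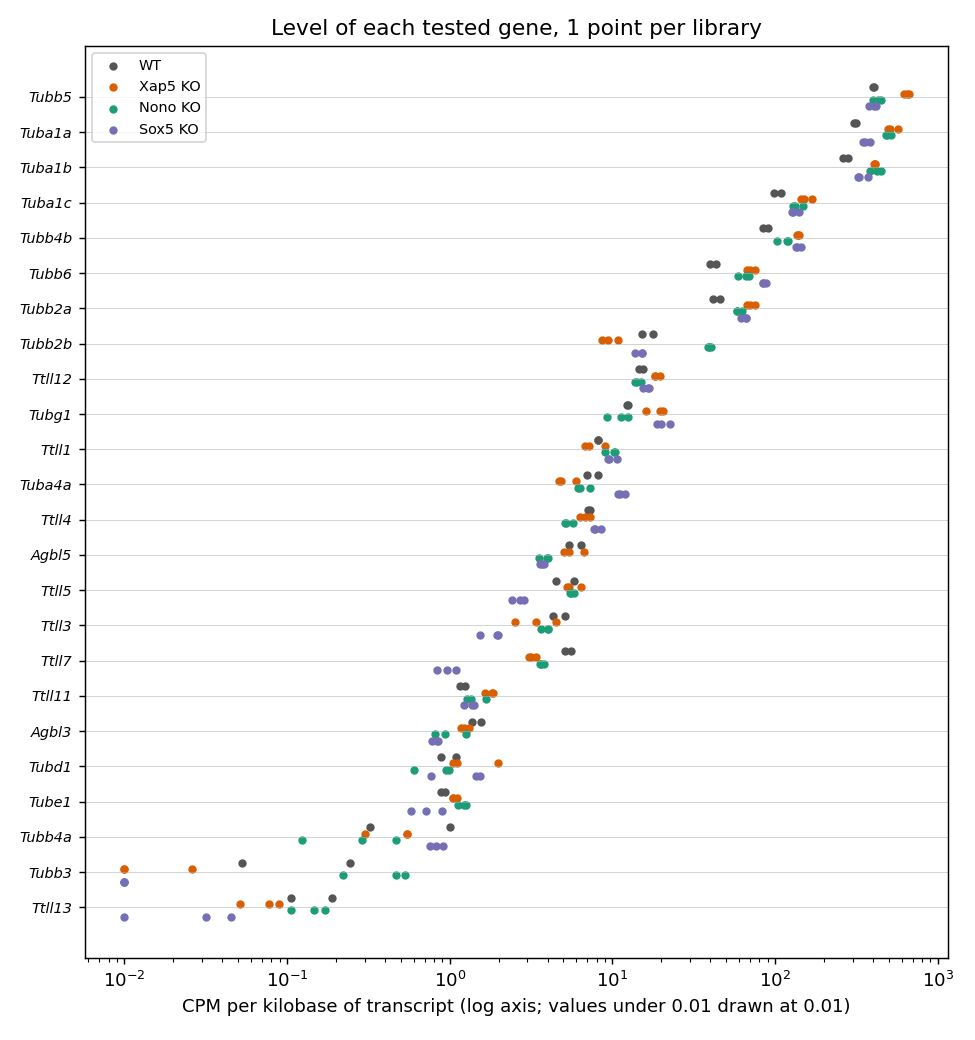
Level of each of the 24 tested genes in CPM per kilobase of the longest transcript, on a log axis, with 1 point per library and colours for the 4 groups. Tubb5 and the Tuba1 genes lie at the top and Tubb3 and Ttll13 at the bottom.

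The expression filter passed 24 of the 37 genes. The 13 below it never exceeded 14 counts in a library. They were Tuba3a, Tuba3b, Tuba8, Tubb1, Tubg2, Ttll2, Ttll6, Ttll8, Ttll9, Ttll10, Agbl1, Agbl2 and Agbl4. Tubb1, the platelet beta-tubulin, and Agbl1 had 0 counts in all 11 libraries, which allows up to 3 counts in a library and covers counting error only. Ttll6 and Ttll9, glutamylases of motile cilia, reached at most 8 and 7 counts, and the glycylase Ttll8 at most 3.

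Each knockout was compared with WT to ask which genes it changes. In Xap5 KO, 10 of the 24 tested genes were called higher and 4 lower, 58.3% of them, against 45.5% of all 13332 tested genes (23.2% higher and 22.3% lower). In Nono KO, 7 were higher and 4 lower, 45.8% against 48.6% of all tested genes (23.5% higher and 25.1% lower). In Sox5 KO, 8 were higher and 7 lower, 62.5% against 60.9% (30.6% higher and 30.3% lower). The share was above the background in Xap5 KO and near it in Nono KO and Sox5 KO, a comparison that was not tested. Changes were mostly small. Of the 24, only 1 each in Xap5 KO and Nono KO, and 5 in Sox5 KO, were called with at least a 2-fold change, against 10.3%, 11.2% and 17.2% of all tested genes. The 1 in Xap5 KO was Tubb3, and the 5 in Sox5 KO included Tubb3 and Ttll13, both of them with few counts. Calls required an adjusted p below 0.05 in the quasi-likelihood test of edgeR, adjusted after Benjamini-Hochberg over all tested genes. The 3 comparisons share the 2 WT libraries.

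Called the same way in all 3 knockouts were 7 of the 24. The background was 15.9% of all tested genes, with 8.33% higher and 7.61% lower. Tuba1a, Tuba1b, Tuba1c, Tubb2a, Tubb4b and Tubb6 were higher and Ttll7 was lower. Only Tubb4b, Tubb6 and Ttll7 kept the call in all 3 lines with an offset fitted to transcript length and GC content, and these 3 and Tubb2a kept it with an offset that centres each chromosome on 0. Tuba4a and Tubb2b were called higher in 1 knockout and lower in another, 2 of 24 against 14.8% of all tested genes.

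**Figure D2:**
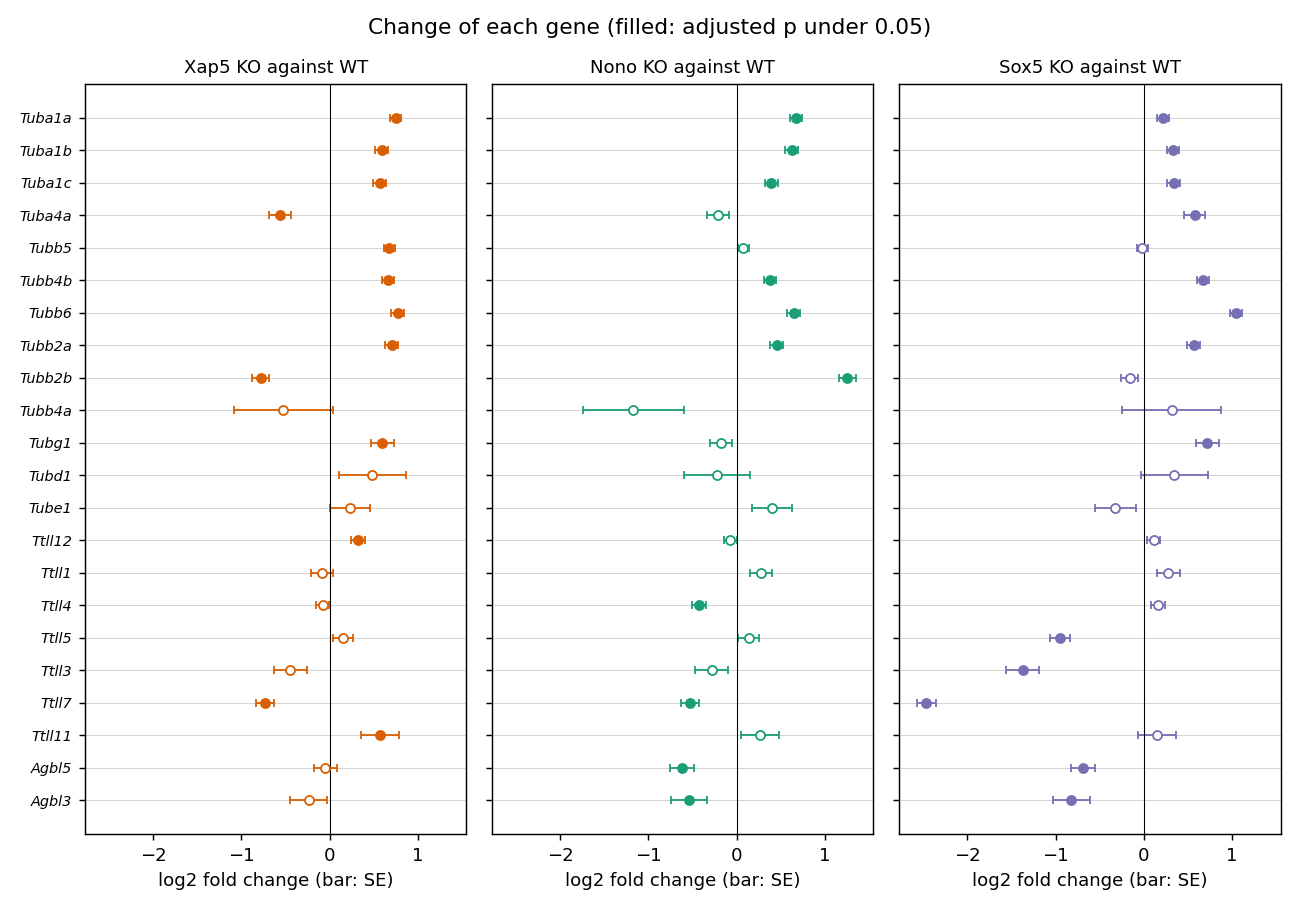
Log2 fold change against WT with its SE for 22 of the 24 tested genes in each knockout, with filled points for genes called at an adjusted p under 0.05. Tubb3 and Ttll13, which had the lowest levels, are left out. Alpha- and beta-tubulins lie mostly to the right of 0 in Xap5 KO and Nono KO, and several TTLL and AGBL genes lie to the left in Sox5 KO.

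Among alpha-tubulins, the 3 genes that make nearly all of the message rose in Xap5 KO and Nono KO. Tuba1a stood at 569.6 and 552.8 CPM in WT, 1022.6, 914.3 and 887.2 in Xap5 KO, 881.5, 935.0 and 860.2 in Nono KO and 641.8, 687.3 and 629.0 in Sox5 KO. All 9 knockout libraries lay above both WT libraries, and the Sox5 KO libraries lay nearest to them. The log2 fold changes were 0.75 (SE 0.0673, adjusted p = 1.1e-08) in Xap5 KO and 0.67 (SE 0.0671, adjusted p = 4.19e-08) in Nono KO in the quasi-likelihood test of edgeR, adjusted after Benjamini-Hochberg. Tuba1b stood at 487.2 and 455.8 CPM in WT, 716.1, 712.2 and 701.1 in Xap5 KO, 780.6, 733.3 and 664.1 in Nono KO and 563.9, 646.1 and 567.3 in Sox5 KO. Again no knockout library overlapped WT. It rose by 0.59 and 0.62 on the log2 scale (adjusted p = 8.1e-07 and 3.13e-07, the same edgeR test). Tuba1c stood at 215.5 and 195.6 CPM in WT, 331.6, 296.6 and 285.4 in Xap5 KO, 292.7, 262.2 and 254.1 in Nono KO and 250.0, 275.9 and 253.8 in Sox5 KO, also without overlap, and rose by 0.57 in Xap5 KO and 0.39 in Nono KO.

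Because reads of these 3 genes can be exchanged, their sum was fitted as 1 gene. It stood at 1272.4 and 1204.2 CPM in WT, 2070.3, 1923.0 and 1873.7 in Xap5 KO, 1954.8, 1930.5 and 1778.3 in Nono KO and 1455.8, 1609.3 and 1450.2 in Sox5 KO. Xap5 KO and Nono KO overlapped each other, and both lay above Sox5 KO, which lay above WT. The log2 fold change of the sum was 0.66 in Xap5 KO compared with 0.61 in Nono KO and 0.28 in Sox5 KO, all called (adjusted p = 8.05e-08, 1.98e-07 and 0.00107, the same edgeR test). The value in Sox5 KO was not called with the length and GC offset (-0.11) or with the chromosome offset (0.08). The sum in Xap5 KO exceeded that in Sox5 KO by 0.38, which was called, and differed between Xap5 KO and Nono KO by 0.05 (SE 0.0596), which was not.

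The Sox5 KO values of these genes depended on the scaling. Tuba1a, Tuba1b and Tuba1c had log2 fold changes of 0.22, 0.33 and 0.34 there, all called, but with the length and GC offset they were -0.21, -0.08 and 0.02, of which that of Tuba1a was called lower (adjusted p = 0.00396, the same edgeR test). With the chromosome offset they were 0.02, 0.13 and 0.14, none of them called. Without WT replicate 2, Tuba1a was at 0.19 and not called. In Xap5 KO and Nono KO the 3 genes kept their calls under both offsets.

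Tuba4a, which encodes no tail tyrosine, went opposite ways. It stood at 23.3 and 19.9 CPM in WT, 16.98, 13.6 and 13.3 in Xap5 KO, 17.8, 20.6 and 17.5 in Nono KO and 31.8, 34.1 and 30.5 in Sox5 KO. Every Xap5 KO library was below, and every Sox5 KO library above, both WT libraries, while Nono KO reached into the WT range. It fell by 0.56 on the log2 scale in Xap5 KO (adjusted p = 0.000785) and rose by 0.58 in Sox5 KO (adjusted p = 0.000391), and the direct difference between these lines was -1.14 (SE 0.111, adjusted p = 1.61e-08) by the same edgeR test. Its value in Nono KO was -0.21, not called. Exons of Tuba4a overlap those of Stk16 on the other strand, and reads of the 2 genes cannot be told apart if the counting ignored strand. The log2 value of Stk16 itself was 0.07 in Xap5 KO against WT, and 0.54 for Sox5 KO.

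Beta-tubulins differed more between the lines. Tubb5, the main beta-tubulin of dividing and many other cells, rose in Xap5 KO alone of the 3 comparisons with WT. It stood at 1075.2 and 1062.5 CPM in WT, 1755.4, 1721.2 and 1645.6 in Xap5 KO, 1142.1, 1176.7 and 1056.0 in Nono KO and 1066.9, 1099.95 and 1003.2 in Sox5 KO. The Xap5 KO libraries lay apart from all others, which overlapped. Its log2 fold change was 0.68 (SE 0.0631, adjusted p = 1.86e-08) in Xap5 KO compared with 0.07 in Nono KO and -0.02 in Sox5 KO, neither of the latter called, by the same edgeR test. The direct differences of Xap5 KO from Nono KO and from Sox5 KO were 0.60 and 0.69, both called. With the length and GC offset, Tubb5 was called lower in Sox5 KO at -0.22.

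Tubb6, a beta-tubulin of non-neuronal cells, was higher in every knockout. It stood at 75.9 and 69.8 CPM in WT, 132.1, 122.3 and 118.3 in Xap5 KO, 116.2, 121.1 and 104.1 in Nono KO and 148.1, 154.2 and 148.7 in Sox5 KO. No knockout library overlapped WT, and Sox5 KO lay above the other 2 lines. It rose by 0.77, 0.64 and 1.05 on the log2 scale in the Xap5, Nono and Sox5 knockouts (adjusted p = 1.91e-08, 2e-07 and 7.59e-11, the same edgeR test). With the length and GC offset the values were 0.67, 0.57 and 0.67, all called, and the lead of Sox5 KO over Xap5 KO was gone.

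Tubb4b, the beta-tubulin best known from cilia, stood at 135.0 and 143.6 CPM in WT, 220.0, 216.2 and 222.4 in Xap5 KO, 188.0, 191.7 and 163.3 in Nono KO and 215.0, 231.5 and 218.6 in Sox5 KO. All knockout libraries exceeded WT. It rose by 0.66, 0.38 and 0.67 in the 3 lines, and with the length and GC offset by 0.52, 0.26 and 0.20, called in each. Tubb2a stood at 73.6 and 67.01 CPM in WT, 108.4, 121.5 and 113.1 in Xap5 KO, 93.8, 94.2 and 100.4 in Nono KO and 107.0, 106.2 and 98.9 in Sox5 KO, likewise without overlap with WT. It rose by 0.70 in Xap5 KO compared with 0.45 in Nono KO and 0.56 in Sox5 KO, where the offset for length and GC gave 0.11, not called.

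Tubb2b, a beta-tubulin most abundant in the developing nervous system, went opposite ways in Nono KO and Xap5 KO. It stood at 38.9 and 33.02 CPM in WT, 23.5, 18.9 and 20.3 in Xap5 KO, 85.3, 87.9 and 84.2 in Nono KO and 32.9, 33.3 and 30.2 in Sox5 KO. Nono KO was above, and Xap5 KO below, every WT and Sox5 KO library. The log2 fold change was 1.25 (SE 0.0988, adjusted p = 9.62e-10) in Nono KO and -0.78 (SE 0.0965, adjusted p = 9.95e-07) in Xap5 KO by the same edgeR test, and the difference between those lines was -2.04 (SE 0.089). Its value in Sox5 KO was -0.16, not called, and -0.49, called, with the length and GC offset. Tubb2a and Tubb2b both lie on chromosome 13, and in Xap5 KO the former rose while the latter fell. Their sum stood at 112.6 and 100.03 CPM in WT, 131.9, 140.4 and 133.4 in Xap5 KO, 179.2, 182.0 and 184.6 in Nono KO and 139.9, 139.5 and 129.1 in Sox5 KO. The sum of Xap5 KO minus Nono KO was -0.43 on the log2 scale, called by the same edgeR test. Against WT the sum was called higher in every line, at 0.35, 0.78 and 0.36 in the Xap5, Nono and Sox5 knockouts. The call in Xap5 KO was lost with the chromosome offset (0.04), and that in Sox5 KO with the length and GC offset (-0.04).

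Tubb3, the neuronal beta-tubulin, had few counts. It had 4 and 20 counts in WT, 0, 2 and 0 in Xap5 KO, 40, 36 and 15 in Nono KO and 0 in all 3 Sox5 KO libraries. Against a floor of 3 counts per library, Xap5 KO was at least 3.65-fold lower than WT, and Sox5 KO at least 2.86-fold, both called (adjusted p = 0.0288 and 0.00668, the same edgeR test), but neither was called without WT replicate 2 (adjusted p = 0.342 and 0.087). The call in Xap5 KO was also lost without replicate 1 (adjusted p = 0.0738) or replicate 3 (adjusted p = 0.0727) of that line, and with the chromosome offset. It was at least 7.85-fold higher in Nono KO than in Sox5 KO, a value given as a description only. Outside Nono KO, only WT replicate 2 had more than 4 counts. That Tubb3 passed the expression filter therefore rested mainly on Nono KO, the group where it was highest. The summed level of 6 neuron markers followed the same order of groups, at 13.7 to 17.5 CPM in WT, 9.48 to 10.7 in Xap5 KO compared with 26.01 to 28.2 in Nono KO and 0.804 to 1.34 in Sox5 KO. Map2 made up most of that sum in each group except Sox5 KO, and other members did not follow its order. Snap25 stood at 2.46 and 3.29 CPM in WT against 0.913, 0.852 and 1.68 in Nono KO, and Stmn2 was at 0 in all Nono KO libraries. Rbfox3 never exceeded 15 counts and Dcx was at 0 in every library but 1. Of the 4 markers tested, 1 was lower in Xap5 KO, 1 higher and 2 lower in Nono KO, and 2 lower in Sox5 KO. Of all tested genes, 45.5%, 48.6% and 60.9% were called in these lines. The part of the neuron markers in the Tubb3 result was not tested. Tubb4a had at most 99 counts in a library and was not called against WT in any line. Its value of -1.17 in Nono KO was called without WT replicate 1 (-1.76) and without Nono KO replicate 2 (-1.68).

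Genes of dividing cells were called higher more often than lower in each knockout. Of 14 proliferation genes, 11 higher and 1 lower were called in Xap5 KO, 7 higher and 1 lower in Nono KO and 9 higher and 2 lower in Sox5 KO, and their summed level was 477.0 to 558.4 CPM in WT, 848.4 to 952.1 in Xap5 KO compared with 509.1 to 708.3 in Nono KO and 591.5 to 625.5 in Sox5 KO. Mki67, a marker of cycling cells, stood at 71.8 and 62.04 CPM in WT, 167.5, 143.1 and 128.1 in Xap5 KO, 88.9, 108.5 and 70.6 in Nono KO and 41.1, 45.7 and 50.3 in Sox5 KO. It was called lower in Sox5 KO at -0.55, but with the length and GC offset it was at 0.13, not called. With that offset the list had 11 higher and 1 lower in the Xap5 line, 6 higher and 2 lower in the Nono line and 8 higher and 1 lower in the Sox5 line. Of all tested genes, 23.2%, 23.5% and 30.6% were called higher without it, in the same order. The median log2 fold changes of the list were 1.14, 0.41 and 0.53. Plk1, a mitotic kinase, had log2 fold changes of 1.36, 0.77 and 1.17, all called. Xap5 KO was highest in the summed list, as in Tubb5. The part of proliferation in the tubulin values was not tested, and in bulk RNA more cells in a state and more RNA per cell cannot be told apart.

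Shares within a family do not depend on a scaling factor common to a whole library, but an offset for length and GC content can change them. Shares are given without that offset, from length-scaled counts as mean ± SD, with n = 2 for WT and n = 3 for each knockout. Tuba1a made up 44.9% ± 0.822 of alpha-tubulin message in WT, against 47.9% ± 1.14, 46.98% ± 1.87 and 42.9% ± 0.687 in the Xap5, Nono and Sox5 knockouts. Tuba4a made up 1.09% ± 0.0785, 0.472% ± 0.0411, 0.622% ± 0.0483 and 1.34% ± 0.0252, in the same order, so that the share was lowest in Xap5 KO and highest in Sox5 KO.

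The beta family changed its makeup. Tubb5 made up 68.03% ± 0.139 in WT and 69.03% ± 0.518 in Xap5 KO, but 60.5% ± 0.171 in Nono KO and only 56.7% ± 0.622 in Sox5 KO. The Nono KO and Sox5 KO libraries lay below every WT and Xap5 KO library. In Nono KO the shares of 4 other genes were higher than in WT, with no overlap of libraries. Tubb2b was at 5.604% ± 0.2 against 2.78% ± 0.295 in WT, and Tubb6 at 9.21% ± 0.232 against 6.99% ± 0.338. Tubb4b was at 16.1% ± 0.571 against 14.7% ± 0.802, and Tubb2a at 8.53% ± 0.787 against 7.36% ± 0.413. In Sox5 KO the higher shares were those of Tubb6, at 12.2% ± 0.299 against 6.99% ± 0.338 in WT, of Tubb4b, at 19.7% ± 0.568 against 14.7% ± 0.802, and of Tubb2a, at 9.19% ± 0.221. In Xap5 KO, Tubb2b was only 1.03% ± 0.105. These shares are a description, with no test. Tubb5 has the longest transcript of the beta-tubulins. Log2 fold changes of Tubb5, Tubb4b, Tubb6 and Tubb2a in Sox5 KO were -0.02, 0.67, 1.05 and 0.56. With the length and GC offset they were -0.22, 0.20, 0.67 and 0.11, so the differences in share in Sox5 KO depend in size on that offset.

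**Figure D3:**
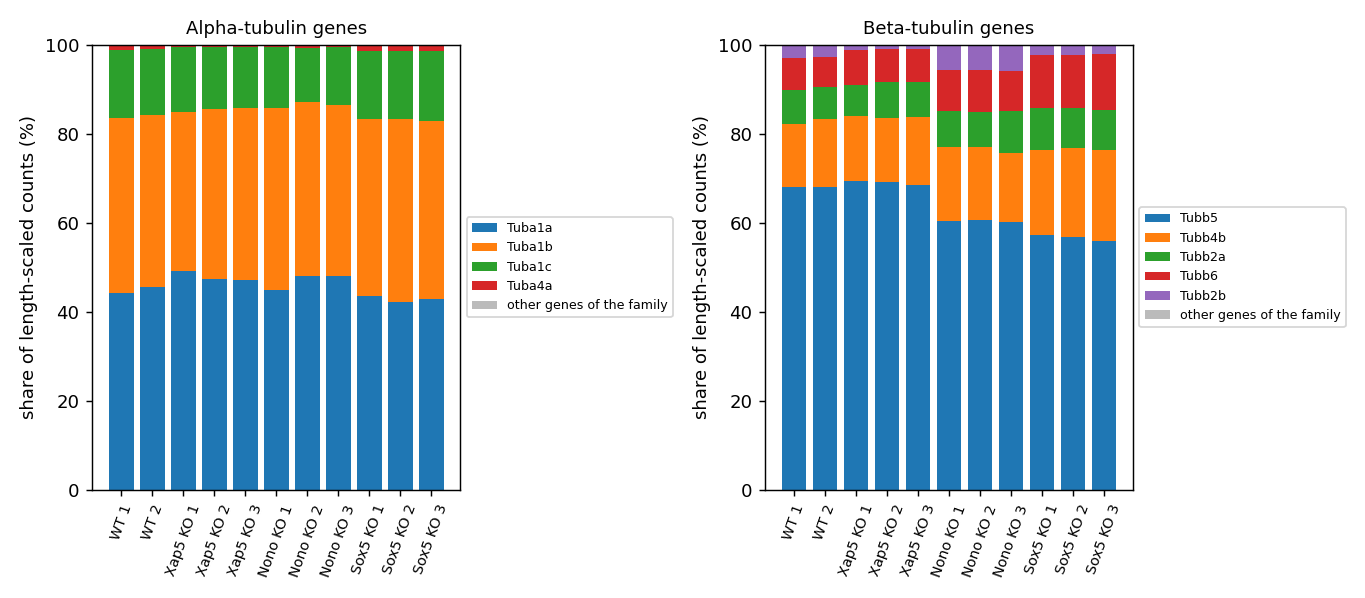
Share of each gene in the length-scaled counts of its family, as stacked bars in percent, for alpha-tubulins at left and beta-tubulins at right, with 1 bar per library. Tubb5 takes about the same share in WT and Xap5 KO and a smaller one in Nono KO and Sox5 KO, where Tubb2b and Tubb6, respectively, are larger.

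Tubg1, the gamma-tubulin of the nucleating ring, stood at 22.6 and 22.03 CPM in WT, 37.03, 35.4 and 28.9 in Xap5 KO, 22.3, 20.2 and 16.6 in Nono KO and 35.8, 40.8 and 33.7 in Sox5 KO. Xap5 KO and Sox5 KO lay above WT, and Nono KO reached from the WT level to below it. It rose by 0.60 in Xap5 KO (adjusted p = 0.000561) and 0.72 in Sox5 KO (adjusted p = 4.53e-05), with -0.18 in Nono KO not called, by the same edgeR test. With the length and GC offset the value in Sox5 KO was 0.37, still called. The near-identical Tubg2 was almost silent, so its sum with Tubg1 gave like values.

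Tube1, epsilon-tubulin, stood at 3.92 and 3.699 CPM in WT, 4.66, 4.41 and 4.38 in Xap5 KO, 5.26, 4.72 and 5.14 in Nono KO and 2.999, 2.41 and 3.73 in Sox5 KO, and Tubd1, delta-tubulin, at 1.84 and 2.25 CPM in WT, 2.16, 4.11 and 2.29 in Xap5 KO, 1.97, 1.24 and 2.04 in Nono KO and 2.999, 3.19 and 1.59 in Sox5 KO. Neither was called against WT in any line. Tube1 differed between Nono KO and Sox5 KO by 0.72 (adjusted p = 0.00433, the same edgeR test), with all Nono KO libraries above all Sox5 KO libraries. The Tubd1 libraries of each knockout overlapped those of WT. With the chromosome offset, Tube1 was called higher in Xap5 KO at 0.71, where the genes of chromosome 10 had a median of -0.46 there.

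The TTLL ligases, 8 of them tested, had 2 genes called higher and 1 lower in Xap5 KO, 2 lower in Nono KO and 4 lower in Sox5 KO. These are 37.5%, 25% and 50% of the 8, below the 45.5%, 48.6% and 60.9% of all tested genes that were called. Ttll7, a glutamylase that acts on beta-tubulin, fell in every line and most in Sox5 KO. It stood at 41.01 and 37.7 CPM in WT, 22.8, 23.2 and 24.98 in Xap5 KO, 27.1, 28.03 and 26.6 in Nono KO and 7.08, 6.201 and 8.101 in Sox5 KO. No knockout library overlapped WT, and the highest Sox5 KO library was far below the lowest of any other group. The log2 fold changes were -2.46 (SE 0.111, adjusted p = 8.37e-14) in Sox5 KO, -0.73 (SE 0.105, adjusted p = 7.02e-06) in Xap5 KO and -0.53 (SE 0.105, adjusted p = 0.000247) in Nono KO by the same edgeR test. With the length and GC offset they were -1.95, -0.73 and -0.56, all called. Sox5 KO differed from both other knockouts, with 1.73 for Xap5 KO minus Sox5 KO and 1.93 for Nono KO minus Sox5 KO.

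Ttll3, a glycylase that starts glycine chains on axonemal tubulin, stood at 13.7 and 16.1 CPM in WT, 7.95, 10.7 and 14.2 in Xap5 KO, 11.4, 12.6 and 12.7 in Nono KO and 4.85, 6.23 and 6.19 in Sox5 KO. The Sox5 KO libraries lay below all others, and the Xap5 KO libraries were widely spread. It fell by 1.37 on the log2 scale in Sox5 KO (adjusted p = 2.46e-06, the same edgeR test) and kept the call under both offsets, at -1.37 and -1.02. In Xap5 KO it was at -0.45, not called, and at -0.68, called, without replicate 3 of that line. Ttll3 shares exon bases with Arpc4 on the same strand, so its level is uncertain. Arpc4, with a WT mean of 104.5 CPM, had log2 fold changes between -0.17 and -0.22 in the 3 lines.

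Ttll5, a glutamylase of alpha-tubulin, stood at 24.5 and 31.7 CPM in WT, 35.1, 29.5 and 28.8 in Xap5 KO, 30.2, 32 and 30.3 in Nono KO and 14.8, 15.6 and 13.3 in Sox5 KO. The Sox5 KO libraries were below all others, which overlapped. It fell by 0.95 on the log2 scale in Sox5 KO (adjusted p = 5.17e-07, the same edgeR test). Ttll5 lies on chromosome 12, whose 447 tested genes had a median log2 fold change of -0.75 in Sox5 KO. With the chromosome offset its change was -0.18 and not called.

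Ttll4, a glutamylase of beta-tubulin and other proteins, stood at 70.8 and 73.1 CPM in WT, 68.1, 63.3 and 72.7 in Xap5 KO, 51.7, 57.5 and 51.3 in Nono KO and 78.7, 77.6 and 85.5 in Sox5 KO. It fell by 0.43 in Nono KO (adjusted p = 0.000102, the same edgeR test), where no library overlapped another group, and was not called in the other lines. Its longest transcript, of 10019 bases, is the longest of the family, and with the length and GC offset it was called higher in Sox5 KO at 0.84. Ttll12, a member with no known ligase activity, stood at 58.4 and 54.7 CPM in WT, 74.1, 68.9 and 68.9 in Xap5 KO, 53.2, 51.8 and 56.6 in Nono KO and 57.9, 62.4 and 63.2 in Sox5 KO and rose by 0.32 in Xap5 KO (adjusted p = 0.00155, the same edgeR test). Ttll1, the catalytic subunit of the main neuronal polyglutamylase complex, stood at 16.7 and 16.7 CPM in WT, 18.6, 14.04 and 14.7 in Xap5 KO, 18.6, 21.2 and 21.04 in Nono KO and 21.8, 19.7 and 19.4 in Sox5 KO. It was not called against WT in any line, with -0.09 in Xap5 KO compared with 0.28 in Nono KO and 0.28 in Sox5 KO, though without Xap5 KO replicate 1 the values in Nono KO (0.28, adjusted p = 0.0436) and Sox5 KO (0.27, adjusted p = 0.0439) were called by the same edgeR test.

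Ttll11, a glutamylase that lengthens side chains, stood at 3.92 and 3.68 CPM in WT, 5.89, 5.79 and 5.23 in Xap5 KO, 4.07, 5.31 and 4.28 in Nono KO and 4.45, 3.86 and 4.34 in Sox5 KO. Its rise of 0.57 in Xap5 KO was called (adjusted p = 0.0331, the same edgeR test) but lost without any one of WT replicate 1 (adjusted p = 0.0988), WT replicate 2 (adjusted p = 0.161), Xap5 KO replicate 1 (adjusted p = 0.0815) or Xap5 KO replicate 2 (adjusted p = 0.0743). Ttll13 had 23 and 14 counts in WT and 0, 4 and 3 in Sox5 KO, too near the floor of 3 counts to show a fold. Its call as lower in Sox5 KO (adjusted p = 0.0485, the same edgeR test) was lost in 6 of the 11 fits that left out 1 library, among them those without either WT replicate (adjusted p = 0.24 without replicate 1 and 0.0775 without replicate 2) and those without any one Sox5 KO replicate (adjusted p = 0.144, 0.0512 and 0.0844 without replicates 1, 2 and 3), and the sixth was without Nono KO replicate 1 (adjusted p = 0.0518).

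**Figure D4:**
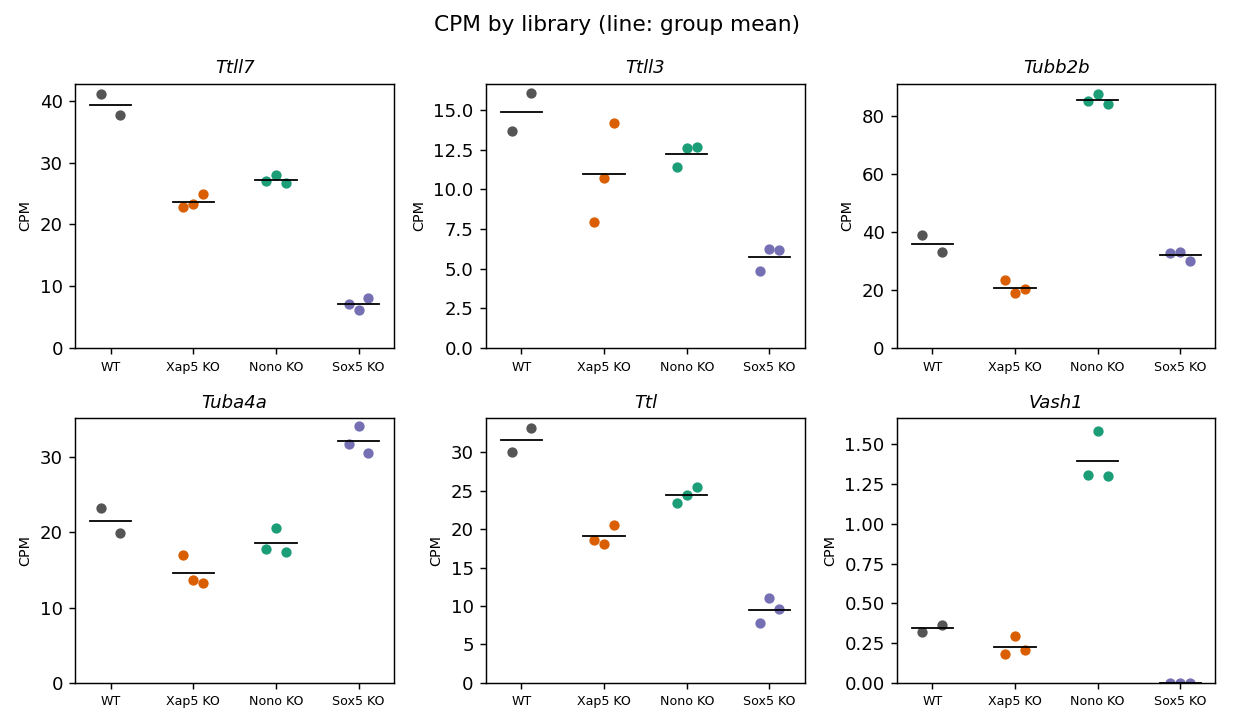
CPM in each library, with lines at the group means, for Ttll7, Ttll3, Tubb2b, Tuba4a, Ttl and Vash1, each on its own axis from 0. Ttll7, Ttll3 and Ttl are lowest in Sox5 KO, Tubb2b and Vash1 are highest in Nono KO, and Tuba4a is highest in Sox5 KO.

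Of the 5 AGBL genes 2 were tested, and both were called lower in Nono KO and Sox5 KO. Of all tested genes, 25.1% and 30.3% were called lower in these lines. With the chromosome offset only Agbl5 kept its calls, at -0.41 in Nono KO and -0.50 in Sox5 KO. Agbl5, the carboxypeptidase that removes branch-point glutamates, stood at 19.2 and 23.1 CPM in WT, 19.3, 17.96 and 23.98 in Xap5 KO, 12.7, 14.3 and 14.2 in Nono KO and 13.5, 13.1 and 12.8 in Sox5 KO. Every Nono KO and Sox5 KO library lay below every WT and Xap5 KO library. It fell by 0.62 in Nono KO (adjusted p = 0.000524) and 0.69 in Sox5 KO (adjusted p = 0.000131), with -0.05 in Xap5 KO not called, by the same edgeR test. Xap5 KO was higher than Nono KO by 0.57 and than Sox5 KO by 0.64, both called. Exons of Agbl5 overlap those of Ost4 on the other strand, and Ost4 had log2 fold changes of 0.20 and 0.79 in Nono KO and Sox5 KO.

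Agbl3, which trims terminal glutamates, stood at 7.47 and 6.58 CPM in WT, 6.304, 5.67 and 5.87 in Xap5 KO, 4.49, 3.92 and 6.103 in Nono KO and 4.08, 3.76 and 4.05 in Sox5 KO. All knockout libraries lay below WT, and those of Nono KO were the most spread. It fell by 0.82 on the log2 scale in Sox5 KO (adjusted p = 0.00183) and 0.54 in Nono KO (adjusted p = 0.0358) by the same edgeR test. The call in Nono KO was lost without WT replicate 1 (-0.44), WT replicate 2 (-0.62), Nono KO replicate 1 (-0.49) or Nono KO replicate 2 (-0.41). With the chromosome offset neither was called, at -0.47 and -0.32, where genes of chromosome 6 had medians of -0.35 in Sox5 KO and -0.19 in Nono KO.

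A trend with transcript length moved with the Sox5 KO results. Among all tested genes, those with a longest transcript under 2000 bases had a median log2 fold change of 0.44 in Sox5 KO and 48.8% of them were called higher. Genes over 4000 bases had a median of -0.31 and 50.5% were called lower. The medians of these length classes were 0.08 and -0.04 in Xap5 KO and 0.09 and -0.09 in Nono KO. Tuba1a, Tuba1b, Tuba1c, Tubb2a, Tubb4b, Tubb6 and Tubg1 all have transcripts under 2000 bases, and in Sox5 KO the 3 Tuba1 genes rose by less than the median gene of that length. Tubb2a, Tubb4b, Tubb6 and Tubg1 rose by more. Ttll7 has a transcript of 7394 bases and fell by far more than the median long gene. The cause of the trend was not tested.

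**Figure D5:**
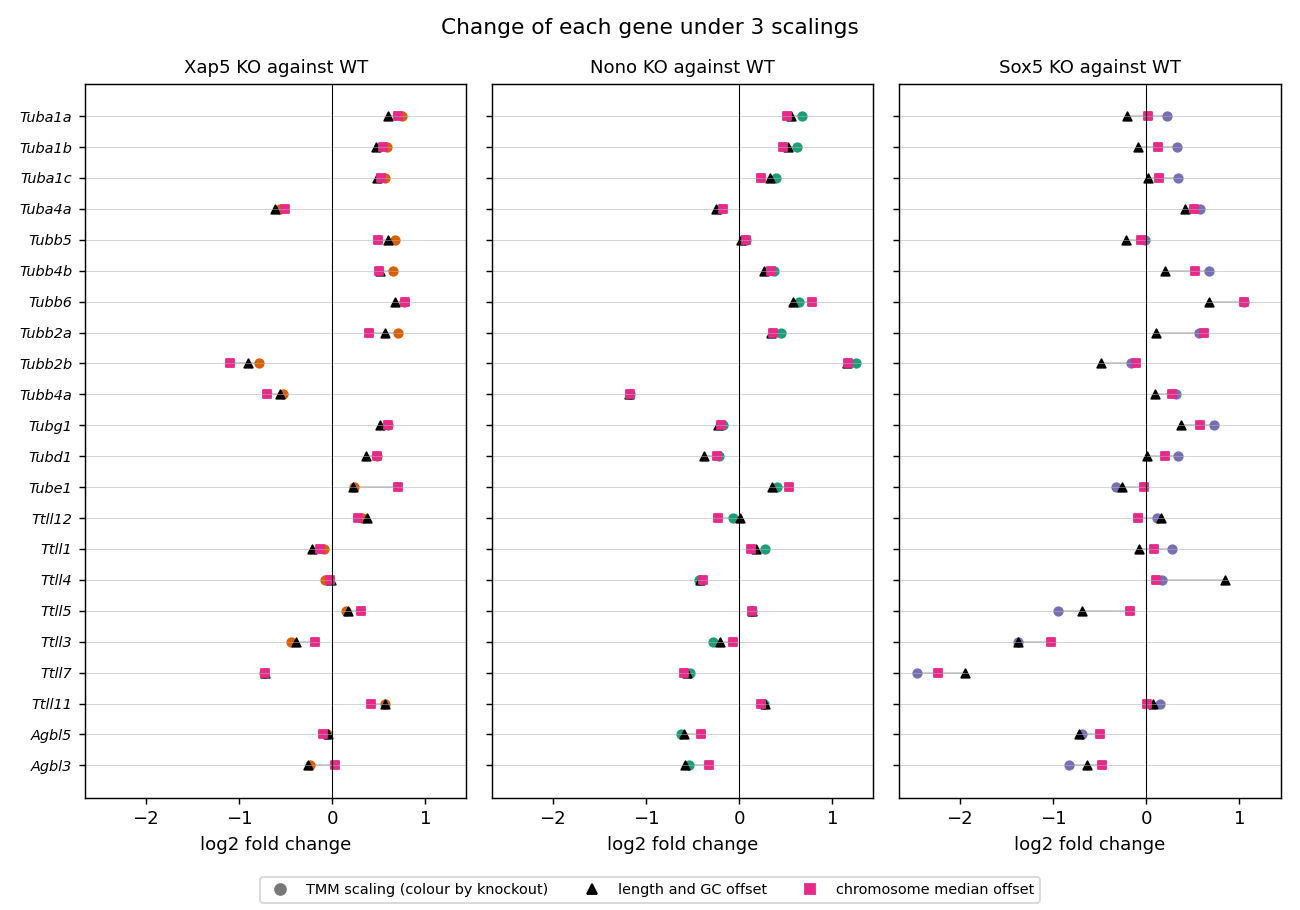
Log2 fold change against WT of 22 tested genes in each knockout under TMM scaling, with the offset fitted to length and GC content, and with the offset that centres each chromosome on 0. In Sox5 KO the length and GC offset shifts the Tuba1 genes to values between -0.21 and 0.02, and the chromosome offset shifts Ttll5 to -0.18.

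Direct comparisons of the knockouts gave 8 higher and 4 lower genes for Xap5 KO against Nono KO, 50% of the 24 against 53.0% of all tested genes (27.1% higher and 25.9% lower). For Xap5 KO against Sox5 KO there were 11 higher and 5 lower, 66.7% against 61.6% (31.1% and 30.4%). For Nono KO against Sox5 KO there were 9 higher and 7 lower, 66.7% against 63.5% (30.9% and 32.6%). The shares lay near the background. At least 2-fold changes were called for 2, 3 and 7 genes, against 11.1%, 15% and 17.0% of all tested genes. The 2 include Tubb3, and the 7 include Tubb3, Ttll13 and Tubb4a, all with low counts. Tubb3 passed the expression filter mainly through Nono KO, so its part in these numbers is a description only. The largest differences were those of Tubb3 and Ttll13, which rest on few counts, and then of Tubb2b and Ttll7.

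The other enzymes of the tyrosine cycle and of acetylation were examined as a list of 10 genes, of which 9 were in the table and all 9 were tested. In Xap5 KO 4 higher and 2 lower were called, in Nono KO 3 higher and 5 lower and in Sox5 KO 2 higher and 4 lower, with medians of 0.17, -0.23 and -0.05. Of all tested genes 45.5%, 48.6% and 60.9% were called, against 6, 8 and 6 of the 9, and the last of these lies near the background. Ttl, the ligase that restores the tail tyrosine, stood at 29.97 and 33.1 CPM in WT, 18.6, 18.1 and 20.5 in Xap5 KO, 23.4, 24.4 and 25.5 in Nono KO and 7.82, 10.98 and 9.66 in Sox5 KO. All knockout libraries lay below WT, with Sox5 KO lowest. Its log2 fold changes in the Xap5, Nono and Sox5 knockouts were -0.73, -0.37 and -1.73 (adjusted p = 4.41e-05, 0.0153 and 1.27e-10, the same edgeR test), and with the length and GC offset -0.73, -0.33 and -1.65, all called.

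The vasohibins, which remove that tyrosine, moved unequally. Vash2 stood at 90.5 and 94.99 CPM in WT, 63.8, 62.1 and 64.4 in Xap5 KO, 34.8, 36.2 and 34.8 in Nono KO and 74.7, 74.2 and 75.01 in Sox5 KO and fell in every line, with log2 fold changes of -1.39 in Nono KO, -0.55 in Xap5 KO and -0.31 in Sox5 KO, all called. Vash1 was far lower. It stood at 0.322 and 0.363 CPM in WT, 0.18, 0.292 and 0.206 in Xap5 KO, 1.31, 1.58 and 1.298 in Nono KO and at 0 counts in all Sox5 KO libraries. The groups did not overlap. It was called higher in Nono KO at 2.02 (adjusted p = 0.0411) and lower in Sox5 KO (adjusted p = 0.000457, the same edgeR test), at least 3.54-fold against a floor of 3 counts per library. Agtpbp1, a carboxypeptidase that shortens glutamate chains, stood at 28.2 and 25.8 CPM in WT, 38.6, 40.9 and 38.4 in Xap5 KO, 34.7, 36.4 and 38.1 in Nono KO and 19.9, 22.7 and 21.97 in Sox5 KO. It rose by 0.54 in Xap5 KO and 0.43 in Nono KO and fell by 0.33 in Sox5 KO, where the length and GC offset turned it to 0.24, called higher. Agtpbp1 was named after its values were seen.

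The 8 chaperonin subunits, which fold new tubulin, had 1 higher and 4 lower called in Xap5 KO, 6 higher and 0 lower in Nono KO and 8 higher and 0 lower in Sox5 KO, with medians of -0.13, 0.25 and 0.40 against 0.00, -0.02 and -0.01 for all tested genes. Called in either direction were 45.5%, 48.6% and 60.9% of all tested genes. In Xap5 KO the chromosome offset left 0 higher and 2 lower, and Cct2 and Cct7, at -0.42 and -0.22, came to 0.05 and 0.05, not called. The length and GC offset left 4 higher and 0 lower in the Nono line and 5 higher and 0 lower in the Sox5 line, where Cct6a turned from 0.18 to -0.05, not called. Only Tcp1 was called higher in all 3 lines, by 0.32, 0.34 and 0.48, and in Xap5 KO it was at 0.14, not called, with the chromosome offset. A list of 8 tubulin folding and autoregulation genes includes Ttc5, the reader of the tubulin start signal. That list had 0 higher and 2 lower in Xap5 KO, 0 higher and 3 lower in Nono KO and 5 higher and 0 lower in Sox5 KO. The 5 of 8 called in Sox5 KO lie near the 60.9% of all tested genes. The medians were -0.03, -0.17 and 0.39. In Sox5 KO the length and GC offset gave 3 higher and 2 lower, the latter being Tbcc (-0.44) and Tbce (-0.36). Ttc5 itself, named after its values were seen, was called lower in Xap5 KO at -0.45 and higher in Sox5 KO at 0.27, the latter lost with the chromosome offset (0.06) and with the length and GC offset (0.02). Its value in Nono KO was -0.10.

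The list of gamma-tubulin ring and anchoring genes (10 genes, all tested) had 1 higher and 4 lower in Xap5 KO, 0 higher and 5 lower in Nono KO and 1 higher and 5 lower in Sox5 KO. The medians were -0.18, -0.29 and -0.19. The counts of 5, 5 and 6 called of 10 stand against the same background as above. Under the chromosome offset Xap5 KO had 1 higher and 2 lower. Under the length and GC offset Sox5 KO had 3 higher and 5 lower, and Tubgcp6, a ring subunit, turned from -0.31 to 0.20 and was called each time. Tubgcp3 was then called higher, at 0.21, and Tubgcp5 was not called. Cct2, Cct7, Cct6a, Tbcc, Tbce and these ring subunits were named after their values were seen. Cdk5rap2, a centrosomal activator of the ring, stood at 185.9 and 195.6 CPM in WT, 136.6, 125.3 and 126.8 in Xap5 KO, 140.6, 142.9 and 143.6 in Nono KO and 62.3, 82.7 and 69.6 in Sox5 KO, with every knockout library below WT. It had log2 fold changes of -0.56, -0.42 and -1.42, and of -0.48, -0.38 and -0.67 with the length and GC offset, all called. Nedd1, which targets the ring to the centrosome, had -0.44, -0.44 and -0.46, all called. Its values in Xap5 KO and Sox5 KO were 0.04 and -0.16 with the chromosome offset, not called. Akap9, a large scaffold of the Golgi and centrosome, had -1.14 in Sox5 KO, which the length and GC offset reduced to -0.31, still called. Of the 5 polyglutamylase complex partners in the table, 1 was called in each line, below the 45.5%, 48.6% and 60.9% of all tested genes. The calls were Tpgs1 lower in Xap5 KO (-0.43) and in Sox5 KO (-0.32) and Nicn1 higher in Nono KO (0.49). These 2 genes were named after their values were seen, and with the chromosome offset none of the 3 calls held, at 0.04, -0.02 and 0.14.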

How the data were processed

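RNA of 11 NIH/3T3 cultures was sequenced from NEBNext Ultra II libraries, per the labels' protocols. The authors deposited estimated counts per gene as whole numbers, 1 column per library. HISAT2 2.1.0, StringTie 1.3.3b, DESeq2 1.12.4 and the mouse builds GRCm39 and mm39 are listed in the submitters' processing notes without their roles. Annotation, filters and strand handling are not given in the sources used here.

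From these counts, edgeR 4.0.16 in R 4.3.3 was fitted to all 11 libraries with TMM scaling, 1 mean per group and robust quasi-likelihood dispersion. Genes were first filtered with filterByExpr at 10 counts, and at 15 counts summed over libraries. The level of 10 did not have to be reached in every library, as Tubb3 passed with 0 counts in some. P-values were adjusted by Benjamini-Hochberg over the 13332 genes that passed. CPM are on TMM-scaled library sizes. The common biological coefficient of variation was 10.6%. Counts of near-identical genes were also summed and refitted. Lengths, GC content and coding sequences came from GENCODE M21 on GRCm38, matched by gene identifier for 21540 of 21684 genes, and the build differs from that of the authors, so only the printed sequences carry coordinates. The fit was tested on simulated data.

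The alternatives were DESeq2 1.42.0 with its size factors, library totals, no filter, a replicate block, each library left out in turn, an absolute log2 fold change of at least 1, and an offset fitted to length and GC content. An offset that centres the genes of each chromosome was added after the data were seen, because genes of chromosome 12 were mostly lower in Sox5 KO. The genes and lists were chosen with earlier results of these data known. Values per library are given for genes called with at least a 2-fold change, called the same way in all 3 knockouts or called in opposite directions, and for the 6 highest, with others added for their role.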

Additional observations from a re-analysis of the deposited data

Results flagged for a closer look

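Tuba4a and Tubb2b were flagged because they were called in opposite directions in a pair of knockouts and the direct test of the difference was also called. Of all tested genes, 14.8% were called higher in 1 knockout and lower in another, so such a pattern is not particular to these genes. For Tuba4a the log2 difference of Xap5 KO minus Sox5 KO was -1.14, with Xap5 KO below WT and Sox5 KO above it. For Tubb2b the log2 difference of Xap5 KO minus Nono KO was -2.04, with Xap5 KO below WT and Nono KO above it. Exons of Tuba4a overlap Stk16 on the other strand, and Tubb2b is nearly identical to Tubb2a, so both values depend on how reads were assigned. For Tuba4a this was not tested. The sum of Tubb2a and Tubb2b did not go opposite ways. It was called higher than WT in Nono KO (0.78) and in Xap5 KO (0.35, and 0.04 and not called with the chromosome offset). Its difference of Xap5 KO minus Nono KO was -0.43. How reads were split between Tubb2a and Tubb2b was not tested.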

How the results depend on the processing

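DESeq2, library totals, no filter on low counts and both offsets kept each number of called genes within 1.5 times of that reported. The split by direction was less stable. With the length and GC offset, Sox5 KO against WT had 5 higher and 10 lower, where 8 and 7 were reported. That offset gave 12 higher and 4 lower for Nono KO against Sox5 KO, where 9 and 7 were reported. Library totals gave 7 higher and 7 lower in Nono KO against WT, where 7 and 4 were reported. In Sox5 KO against WT, 10 genes were called with the chromosome offset, against 15. Requiring at least a 2-fold change left 1 gene in Xap5 KO against WT, 1 for Nono KO and 5 for Sox5 KO. It left 2 for Xap5 KO against Nono KO, 3 for Xap5 KO against Sox5 KO and 7 for Nono KO against Sox5 KO. Tubb3, which rests on few counts, is in each of these numbers except those of Nono KO against WT and Xap5 KO against Sox5 KO. The 7 genes called the same way in all 3 knockouts became 3 with the length and GC offset, 4 with the chromosome offset and 0 with a 2-fold minimum. Calls on summed genes were 11 as reported and 9 with each offset, and 0 reached 2-fold.

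With the length and GC offset, the sign changed for Tubb6 (0.0048) and Tubb4b (0.31) in Xap5 KO against Sox5 KO, for Tubb4b (0.058) and Tubb2a (0.23) in Nono KO against Sox5 KO, and for Tuba1b (-0.085) and Tuba1a (-0.21) in Sox5 KO against WT. With the chromosome offset it changed for Tubb2a in Xap5 KO against Sox5 KO (-0.23). All these are log2 fold changes, and the cause was not tested. From raw counts without length scaling, the Tubb5 share was 76.9% in WT, 78.0% in Xap5 KO compared with 70.2% in Nono KO and 67.4% in Sox5 KO, and the Tubb2b share in Nono KO was 5.36%.

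Leaving out each library in turn gave 12 to 14 called genes in Xap5 KO against WT, 10 to 12 in Nono KO and 12 to 16 in Sox5 KO. The ranges were 10 to 13 for Xap5 KO against Nono KO, 14 to 16 for Xap5 KO against Sox5 KO and 14 to 16 for Nono KO against Sox5 KO. Between 6 and 7 genes were called the same way in all 3 knockouts, and 11 calls on summed genes were made each time.

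With the replicate number as a block, 14, 11 and 14 genes were called in the Xap5, Nono and Sox5 knockouts against WT. Deviations of libraries with the same number correlated between -0.0226 and 0.0465, so the numbers were not taken as pairing the samples. Under the block, Ttll3 was called in Xap5 KO (-0.57), while Ttll13 in Sox5 KO and Tubb3 in Xap5 KO were not.

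Scaling by library totals moved the median of all tested genes by more than 0.1 on the log2 scale, to -0.18 in Nono KO and -0.12 in Sox5 KO. Of all called genes, 30.2% were then higher in Nono KO against 48.4% with TMM, and 41.0% in Sox5 KO against 50.2%. Tuba1a in Sox5 KO was then at 0.10 and not called. Depth limits Tubb3, Tubb4a and Ttll13 most.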
